A study of Caenorhabditis elegans with 2 samples.

Results

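The genes described are 10 nuclear receptor genes of Caenorhabditis elegans with orthologs across animals: daf-12, nhr-8, nhr-48, nhr-23, nhr-25, nhr-85, nhr-6, nhr-67, fax-1 and unc-55. They were taken as a named list out of 19973 protein-coding genes on the nuclear chromosomes, and all 10 were found by symbol as protein-coding genes. For each gene, every candidate region of NHR-11 association was collected whose summit lay in the gene body or up to 5 kb upstream of its start. Nuclear receptors are transcription factors with a zinc finger domain that binds short DNA sequences and, in most, a domain for a small lipophilic ligand. Worms have a greatly expanded family of them, to which NHR-11 belongs, beside a small conserved set. The conserved set includes regulators of larval timing, moulting, gonad formation and neuron identity.

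The regions come from ChIP-seq, in which DNA bound by a protein is precipitated with an antibody and sequenced. There was 1 group of 2 biological replicates: whole L1 larvae, pooled male and female and of unrecorded age, of strain OP305 with the genotype unc-119(ed3) III; wgIs305. The integrated transgene wgIs305 carries NHR-11 fused to eGFP, and all animals share the unc-119 mutation. No untagged strain, second stage or second genotype was analysed here, and the labels do not state which promoter drives the fusion. Because whole animals were used, a region cannot be assigned to a tissue. The authors' lists on the ce11 build hold 30000 candidates for replicate 1, 30000 for replicate 2 and 28727 for the pool of both, and these include background regions by design. The 1141 regions they called reproducible by IDR (irreproducible discovery rate) are the pooled candidates with a signal value of 49.9 or more. Signal values are the authors' own, on a scale not given in the sources used here. The depth is unknown, because the lists hold no read counts.

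The conserved receptors held 2 called regions. A called summit lay in the window of 2 of the 10 genes, nhr-48 and daf-12, where 9.77% of all protein-coding genes have one. In a set of 10 genes, 1 gene more or fewer moves the share by 10 percentage points, about the size of the background, so the count was read as near the background. The members' windows were long, with a median of 10.3 kb against 7.03 kb over all genes. Among genes with windows of 10 kb or longer the called share was 13.9%. It was 11.2% for windows of 8 to 10 kb, which is the class of nhr-8, fax-1 and unc-55. It was 12.1% for windows of 10 to 12 kb, the class of nhr-6, nhr-23, nhr-25, nhr-67 and nhr-85, and none of these 8 receptors had a called summit. It was 14.7% for 12 to 20 kb, the class of nhr-48, and 16.8% for longer windows, the class of daf-12. Among the 262 other nhr-named genes, most of them from the expanded family, the called share was 11.1%.

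**Figure D1:**
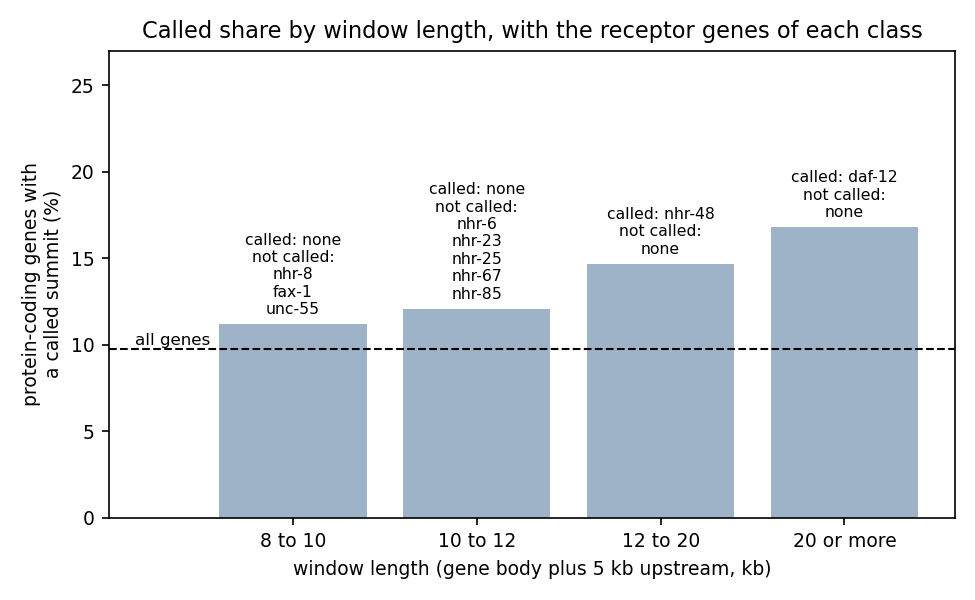
Share of protein-coding genes with a called summit (percent, y axis) by the length of the gene's window (kb, x axis). The bars rise from 11.2% to 16.8%, the dashed line marks 9.77% for all genes, and the receptor genes named over each bar show that the called members are those with the longest windows.

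All 10 genes had at least 1 candidate in the pooled list and in each replicate, where 80% of all protein-coding genes and 80.9% of the other nhr-named genes had a pooled candidate. The windows together covered 130.2 kb and held 44 pooled candidates, or 33.8 per 100 kb (exact Poisson 95% interval 24.5 to 45.4, counting error only), where the genome had 28.6. Called peaks numbered 1.54 per 100 kb of member window (interval 0.186 to 5.55) and 1.14 per 100 kb of genome, so at this number of peaks a difference was not detectable. The genome rates include bases outside gene windows, whereas 92.3% of all pooled candidates lay in the window of a protein-coding gene. A rate over all such windows is not given here. Of the 44 candidates, 4.55% were called, beside 3.97% of all pooled candidates. The median signal value of the 44 was 18.9, with quartiles of 15.8 and 22.1. Over all 28727 pooled candidates the median was 18.4, with quartiles of 15.6 and 23.3. By rank, 2 of the 44 lay among the 1141 strongest of the pool, 2 among the next 1141, 13 at ranks 2283 to 11410 and 27 below. The strongest of the 44 ranked 557 with a signal value of 75.4, where the whole list reached 681.3. The deposited -log10 q was 3.16 and 2.71 at the called peaks of nhr-48 and daf-12. It was 2.53 at the strongest nhr-23 candidate and 1.33 at the next daf-12 candidate. At every other pooled candidate it was 0.81 or lower, down to 0.0187 at fax-1. The lists include background regions by design, and such low values do not set those candidates apart from background.

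**Figure D2:**
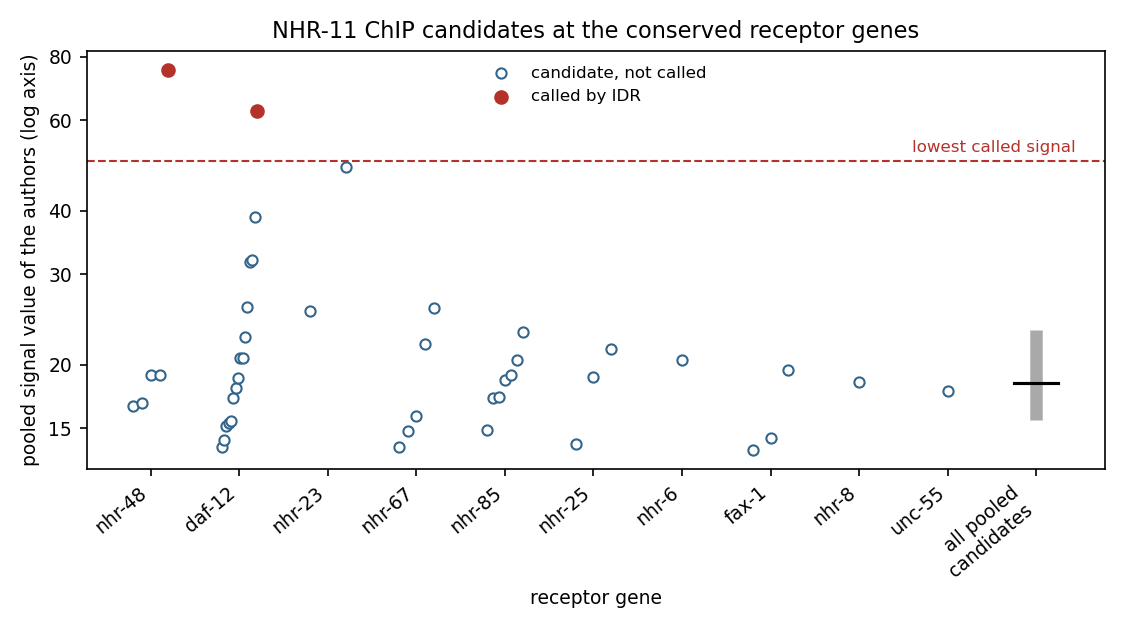
Signal value of each pooled candidate (y axis, log scale) at the 10 receptor genes (x axis, ordered by their strongest candidate), with the median and quartiles of all 28727 pooled candidates at the right. Filled red points are called peaks, open points are not called, and the dashed line is the lowest called signal of 49.9; only nhr-48 at 75.4 and daf-12 at 62.5 lie above it, and nhr-23 at 48.7 lies just below.

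The sequences below are the 101 bases centred on the summits that carry these results: both called peaks, the next strongest daf-12 candidate, the strongest nhr-67 candidate, which lies in its promoter window, and the nhr-6 candidate that is strong in replicate 1 alone. They were read from the RefSeq sequence of WBcel235, the assembly that ce11 names. Each is given 5′ to 3′ on the plus strand of the genome, with capitals for any match on either strand to the words AGGTCA or AAGTCA or AGTGCA, and to GAGAGA or GACGCA.
nhr-48 promoter, called (chrX:15707579-15707679, plus strand): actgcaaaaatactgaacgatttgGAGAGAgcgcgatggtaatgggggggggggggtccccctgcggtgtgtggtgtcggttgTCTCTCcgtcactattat
daf-12 intron, called (chrX:10650150-10650250, plus strand): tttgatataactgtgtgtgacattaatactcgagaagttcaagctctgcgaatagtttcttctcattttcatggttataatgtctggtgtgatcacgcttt
daf-12 intron, not called (chrX:10637576-10637676, plus strand): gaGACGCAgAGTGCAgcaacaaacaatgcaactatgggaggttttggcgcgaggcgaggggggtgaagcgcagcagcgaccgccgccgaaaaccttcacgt
nhr-67 promoter, not called (chrIV:11169347-11169447, plus strand): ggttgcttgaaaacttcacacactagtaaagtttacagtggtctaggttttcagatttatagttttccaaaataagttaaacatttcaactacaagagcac
nhr-6 upstream, not called (chrIII:3569195-3569295, plus strand): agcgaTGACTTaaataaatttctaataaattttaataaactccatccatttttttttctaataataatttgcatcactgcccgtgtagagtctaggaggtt

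The words AGGTCA and AAGTCA and AGTGCA are short sequences bound by nuclear receptors of various kinds, whereas GAGAGA and GACGCA were picked because they were frequent under called peaks in an earlier analysis of these data. The nhr-48 peak has GAGAGA on both sides of its summit, starting 26 bases before it on the plus strand and 33 bases after it on the minus strand, around a run of 13 G. The daf-12 called peak holds none of the 5 words. The daf-12 candidate that was not called holds GACGCA and AGTGCA near its left edge. Over the 44 member windows GAGAGA occurred in 5 (11.4%), beside 8.35% of all pooled candidates and 30.6% of called peaks. GACGCA occurred in 1 (2.27%), beside 3.46% of all pooled candidates and 19.6% of called peaks. AAGTCA and AGTGCA occurred in 2 windows each (4.55%), where 4.36% and 3.42% of all pooled candidates held them. AGGTCA occurred in 1 window, 228 bp upstream of nhr-85, which is 2.27% of the member windows beside 2.33% of all pooled candidates. Median GC content was 34.7% in the member windows, 33.7% over all pooled candidates and 45.5% in called peaks. The nhr-48 window had 55.4% GC and the daf-12 called window 35.6%. These matches describe the letters in the windows and are not evidence of binding by a given receptor.

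The strongest region of the set lay in front of nhr-48 (WBGene00003638, X 15708213 to 15716875, plus strand), a receptor gene related in sequence to daf-12 and nhr-8. Its peak at X 15707444 to 15707813 had a signal value of 33.3 in replicate 1, 41.8 in replicate 2 and 75.4 in the pool, where it ranked 557. The summit at 15707629 was 584 bp upstream of the gene start, and the replicate summits were 607 and 604 bp upstream. Both replicates thus placed the summit close to the pooled one. The peak ranked 820 in replicate 1 and 454 in replicate 2. No other protein-coding gene has its window there. The other 4 pooled candidates of nhr-48 had signal values of 16.6 to 19.1, and 3 of them lay in introns.

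The daf-12 gene (WBGene00000908, X 10635908 to 10666875, plus strand) encodes the receptor for dafachronic acids, steroid hormones through which worms choose between reproductive growth and the dauer stage, and it also times larval cell fates. Its called peak at X 10650015 to 10650384 had a signal value of 27.3 in replicate 1, 32.7 in replicate 2 and 62.5 in the pool, at rank 777. The pooled summit, 10650200, was 14292 bp into the gene and 3143 bp from the nearest 5′ end of a daf-12 transcript. It lay in an intron of 14898 bp that 3 of the 10 protein-coding transcripts share and in shorter versions of it in others. Replicate 1 had its summit at the same base and replicate 2 at 10650306. In replicate 1 this peak ranked 1234, outside the 1141 strongest, and in replicate 2 it ranked 727. A neighbouring pooled candidate with its summit at 10650400 and a signal value of 31.7 overlaps the called peak. Replicate 1 had a separate candidate there, with its summit at 10650416, a signal value of 16.04 and rank 6003, whereas the strongest replicate 2 candidate that overlaps it is the one of the called peak.

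Across its long window daf-12 held 16 pooled candidates, 12 in replicate 1 and 16 in replicate 2, with pooled signal values of 13.8 to 62.5 and a median of 19.7. The next strongest, with its summit 1718 bp into the gene, had 14.2 in replicate 1, 20.5 in replicate 2 and 38.8 in the pool, at rank 1874. A candidate 186 bp past the gene start had 19.2 in replicate 1 but 8.21 in replicate 2, and 31.9 in the pool. Per 10 kb of window the gene had 4.45 pooled candidates, a density that nhr-67 with 4.98 and nhr-85 with 5.87 exceeded, so daf-12 had the most candidates and the longest window but not the highest density. 

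**Figure D3:**
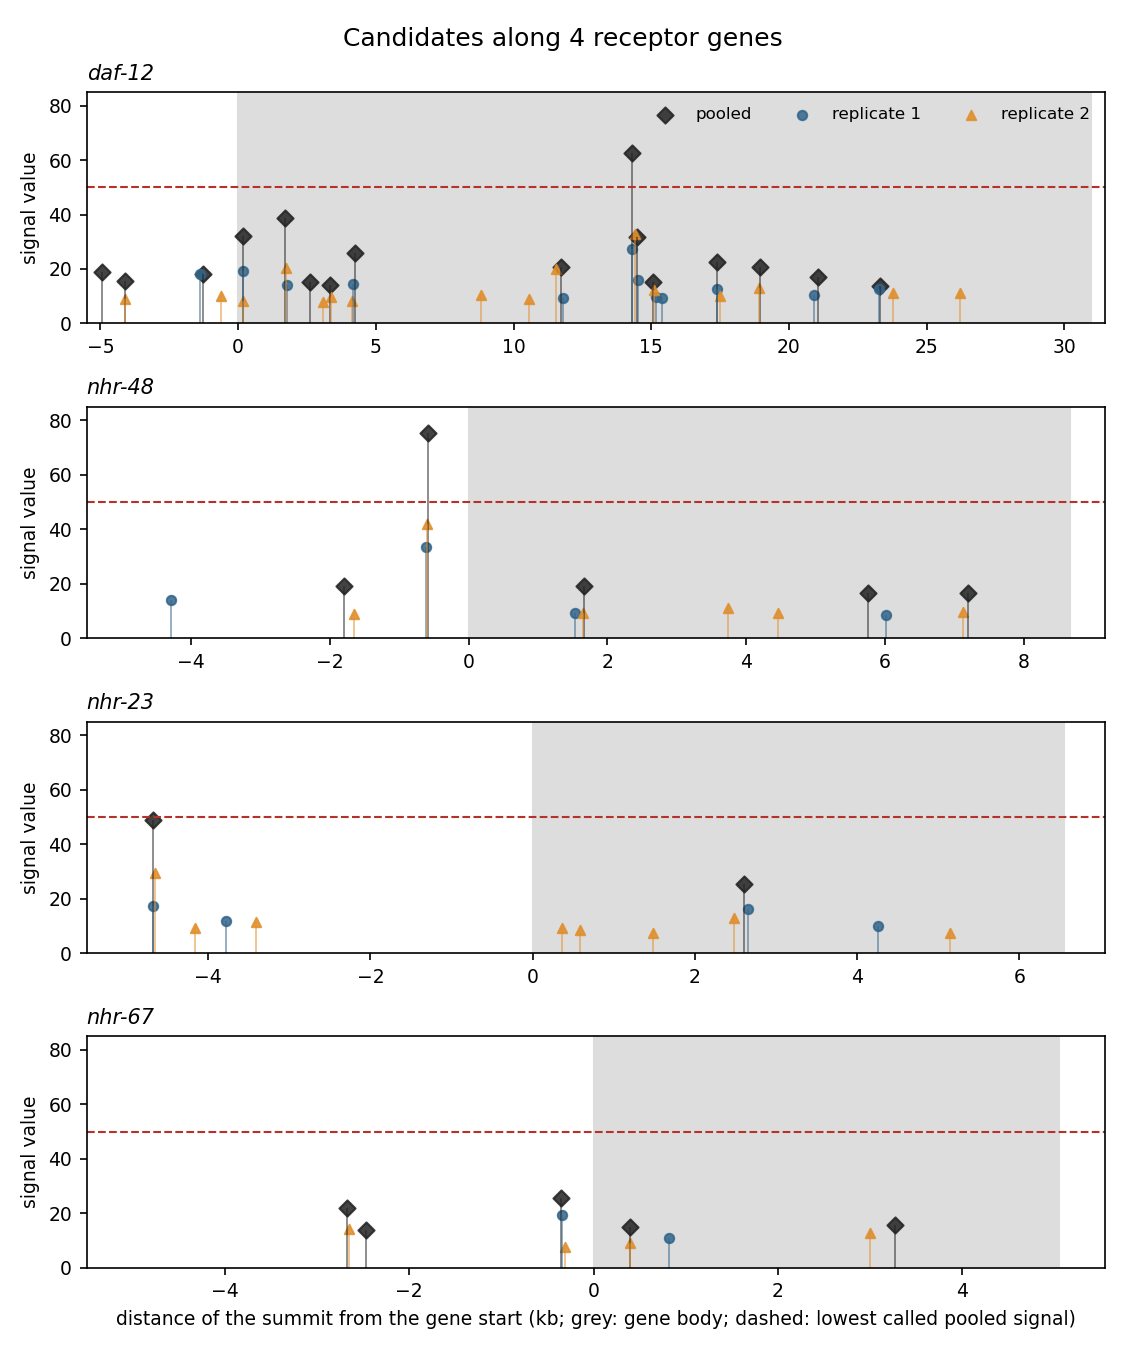
Signal value (y axis) of every candidate along daf-12, nhr-48, nhr-23 and nhr-67 against the distance of its summit from the gene start (kb, x axis), for the pool (black diamonds), replicate 1 (blue circles) and replicate 2 (orange triangles). Grey marks the gene body and the dashed line the lowest called pooled signal of 49.9; the highest nhr-48 point lies upstream of its gene and the highest daf-12 point lies inside the gene.

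Also of this subfamily is nhr-8 (WBGene00003607, IV 7710983 to 7714210, plus strand), which acts in sterol homeostasis and the response to foreign compounds. It had a single candidate in each list, and the replicates disagreed on where. The replicate 1 candidate had a signal value of 13.0 and lay 1038 bp upstream of the gene, and the replicate 2 candidate had 10.9 and lay 2405 bp upstream. The pooled candidate, at 2406 bp upstream with a signal value of 18.5, had no overlapping candidate in replicate 1. Its summit was in a coding exon of mrpl-1, a mitochondrial ribosomal protein gene, 507 bp from that gene's 5′ end. The nhr-8 window overlaps several neighbouring genes, and no candidate summit lay inside nhr-8 itself.

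Among the moulting regulators, nhr-23 (WBGene00003622, I 7214745 to 7221299, plus strand), the ROR-related receptor needed for moulting, came closest to the called set. Its strongest candidate, at I 7209876 to 7210245, had a signal value of 17.2 in replicate 1, 29.5 in replicate 2 and 48.7 in the pool, where it ranked 1198. It missed the lowest called signal of 49.9, and the replicates differed, with ranks of 4749 and 887. The summit was 4684 bp upstream of nhr-23 but 195 bp from the 5′ end of C01H6.3, between that gene and the divergent gene C01H6.4, so it lay in their promoter windows and not in that of nhr-23. The other pooled candidate of nhr-23 had a signal value of 16.1 in replicate 1, 13.0 in replicate 2 and 25.5 in the pool. Its summit at 7217353 was in an intron, 569 bp from an annotated 5′ end inside the gene.

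The receptors nhr-25 and nhr-85 had weaker candidates. For nhr-25 (WBGene00003623, X 13008493 to 13013964, plus strand), the FTZ-F1 and SF-1 ortholog that acts in epidermis, moulting and gonad, 3 pooled candidates had signal values of 13.96 to 21.5. Its promoter candidate, 578 bp upstream of the start, had 11.9 in replicate 1, 8.20 in replicate 2 and 18.9 in the pool. The strongest, in a coding exon, had an overlapping candidate in replicate 2 only, with 11.8. For nhr-85 (WBGene00003675, I 13055201 to 13062122, minus strand), related to insect E75 and vertebrate Rev-Erb, 7 pooled candidates had signal values of 14.9 to 23.2. The strongest was 228 bp upstream of the start, with 15.5 in replicate 1, 12.9 in replicate 2 and 23.2 in the pool. This was the highest density of the set, and none of the 7 ranked above 7333. A further nhr-85 candidate lay 293 bp from the 5′ end of hpo-2, the neighbouring gene.

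For the receptors of gonad formation the replicates diverged, as they also did at other members, among them nhr-8, nhr-25, fax-1 and unc-55. Only 38.6% of the 44 member candidates and 39.2% of all pooled candidates had an overlapping candidate in both replicates. The gene nhr-6 (WBGene00003605, III 3573581 to 3578771, plus strand), the NR4A ortholog needed for the spermatheca, had 1 pooled candidate, 4336 bp upstream, with a signal value of 20.4. In replicate 1 that candidate had 23.8 and ranked 1762, and there was no overlapping candidate in replicate 2, whose list goes down to a signal value of 7.14. The replicate 2 candidates of nhr-6 lay elsewhere and had 7.44 or less. The gene nhr-67 (WBGene00003657, IV 11169748 to 11174791, plus strand), the tailless ortholog that acts in the anchor cell and vulva, had 5 pooled candidates of 13.8 to 25.8. Its promoter candidate, 351 bp upstream, had 19.4 in replicate 1, 7.74 in replicate 2 and 25.8 in the pool. The candidate 2677 bp upstream showed the opposite pattern, with 14.1 in replicate 2, no overlap in replicate 1 and 22.0 in the pool, and the weakest nhr-67 candidate overlaps the same replicate 2 candidate.

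The neuronal receptors had weak candidates. The gene fax-1 (WBGene00001400, X 3196064 to 3199349, minus strand), a PNR-related receptor of interneuron identity, had 3 pooled candidates. The strongest, 2343 bp upstream, had 11.4 in replicate 1, 8.49 in replicate 2 and 19.5 in the pool. The other fax-1 candidates, with 14.4 and 13.6 in the pool, had no overlapping candidate in either replicate. The gene unc-55 (WBGene00006790, I 7898434 to 7903334, minus strand), the COUP-TF ortholog that sets the synaptic pattern of VD motor neurons, had 1 candidate in each list. The replicate 1 candidate lay 35 bp upstream of the gene with a signal value of 11.4, whereas those of replicate 2 and the pool lay 3033 and 2818 bp upstream with 11.3 and 17.8. The pooled unc-55 candidate ranked 15748, below the middle of the list.

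Ordered by the strongest pooled candidate, the genes ran nhr-48, daf-12, nhr-23, nhr-67, nhr-85, nhr-25, nhr-6, fax-1, nhr-8 and unc-55. At the top the order was the same in both replicates, with nhr-48 ahead of daf-12 and daf-12 ahead of the rest. The ranges over the replicates were 33.3 to 41.8 for nhr-48 and 27.3 to 32.7 for daf-12 and did not overlap. That of nhr-23, 17.2 to 29.5, overlapped that of daf-12. Below these, nhr-6 was at place 3 in replicate 1 and place 10 in replicate 2, and nhr-67 spanned 14.1 to 19.4 and nhr-85 15.5 to 16.6. Each value is the highest of the gene in that replicate, and the 2 replicates need not share the candidate. At nhr-67 the 19.4 of replicate 1 lay 349 bp upstream and the 14.1 of replicate 2 lay 2657 bp upstream. At nhr-85 the 15.5 of replicate 1 lay 186 bp upstream and the 16.6 of replicate 2 in the 3′ UTR. The strongest candidates of nhr-25, nhr-8, fax-1 and unc-55 were between 9.22 and 13.0 in both replicates and were not separated. With 2 replicates no test of these differences was made. In a comparison with all 19973 genes, the 15972 with a candidate were ranked by their strongest one and the rest counted as lower. On this count, the strongest candidate was higher at nhr-48 than at 94.9% of genes, at daf-12 than at 92.9% and at nhr-23 than at 89.8%. The other 7 receptors lay between 38.1% and 68.7%. These places are thus higher than among genes with a candidate alone, and they were not matched for window length. The median over the 10 members was 22.3, beside 22.9 over the 15972 protein-coding genes with a candidate and 23.9 over the 212 other nhr-named genes with one.

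**Figure D4:**
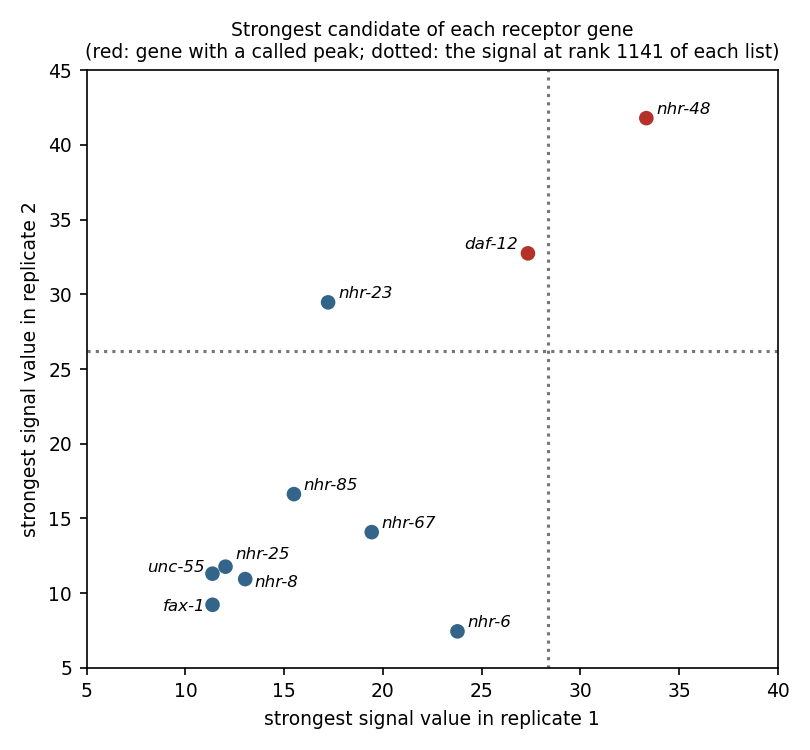
Highest signal value among the candidates of each receptor gene in replicate 1 (x axis) and replicate 2 (y axis), which need not be the same candidate. Dotted lines mark the 1141st strongest signal of each replicate, 28.4 and 26.2; nhr-48 exceeds both, daf-12 and nhr-23 exceed that of replicate 2, and nhr-6 is high in replicate 1 only.

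Replicate support for the 44 pooled candidates was compared with that of the whole list. An overlapping candidate in both replicates was found for 17 (38.6%, beside 39.2% of all pooled candidates). For 9 there was one in replicate 1 only (20.5% beside 29.4%), for 15 in replicate 2 only (34.1% beside 23.4%) and for 3 in neither (6.82% beside 7.97%). The called peaks of nhr-48 and daf-12 had both. Of the candidates that each replicate placed in these windows, 21 of 38 in replicate 1 (55.3%, beside 38.5% of its list) overlapped one of replicate 2. In the other direction, 17 of 50 did (34.0%, beside 38.3%). Candidates of 1 gene share their locus and, where they overlap, their reads, so these shares were not tested.

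By position, 20 of the 44 summits lay in introns, 11 between genes, 8 in promoter windows (1000 bp upstream to 200 bp downstream of any annotated coding transcript's 5′ end), 2 in coding exons, 2 in 3′ UTRs and 1 in a 5′ UTR. The promoter share was 18.2%, beside 34.7% of all pooled candidates that lie in the window of any protein-coding gene and 62.1% of called peaks. The introns of daf-12 held 11 of the 20 intron summits. For 34 of the 44 (77.3%) the nearest protein-coding 5′ end belonged to the receptor gene itself, and 18 (40.9%) also fell in the window of another protein-coding gene. Annotated 5′ ends of worm genes are often trans-splice sites and not the start of transcription, so these distances are to the annotated ends. The 4 genes on X held 27 of the candidates, 39.5 per 100 kb of window beside 31.3 over the X chromosome, and 16 of the 27 were at daf-12. The 6 autosomal genes had 27.5 per 100 kb beside 28.1 over the autosomes.

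Lists of genes related to these receptors by theme were read in the same way. The background was the same 9.77% of protein-coding genes called. It was 14.7% for windows of 12 to 20 kb, the class of fos-1, and 16.8% for longer ones, the class of din-1. The other genes of these lists with a called summit had windows shorter than 10 kb. Of 8 genes for the synthesis of the DAF-12 ligand and its cofactors, 2 had a called summit, din-1 and strm-1. The din-1 gene, for the corepressor that DAF-12 recruits when it has no ligand, had 4 called summits, and the strongest, 2344 bp upstream of its start, had 99.1 in replicate 1, 100.4 in replicate 2 and 195.1 in the pool. This was above every candidate of the receptors themselves. At strm-1, a sterol methyltransferase gene, the peak had 36.9 in replicate 1, 33.0 in replicate 2 and 73.8 in the pool, but the nearest 5′ end was that of cic-1. The cytochrome P450 gene daf-9, which makes the ligand, had a strongest candidate of 38.8 in the pool, nearest to the 5′ end of ceh-54, and no called summit.

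Of 5 receptors related to vertebrate HNF4, 2 had a called summit nearest to their own 5′ end. At nhr-14 the peak had 33.1 in replicate 1, 24.8 in replicate 2 and 57.2 in the pool. At nhr-35 it was 394 bp upstream of the gene start, with 24.3 in replicate 1, 32.3 in replicate 2 and 58.2 in the pool. At nhr-49, a regulator of fat metabolism, the strongest pooled candidate reached 46.0 and was not called. None of 4 other conserved receptors, nhr-41, nhr-91, nhr-111 and nhr-239, had a called summit, and their strongest pooled candidates ran from 17.6 to 37.9. Of 14 moulting and epidermis genes, 1 had a called summit, nekl-3, a NIMA-related kinase gene, with 50.5 in replicate 1, 57.3 in replicate 2 and 104.6 in the pool, but the nearest 5′ end was that of F17E5.2. Of 6 anchor cell and spermatheca genes, 1 did, fos-1, a transcription factor gene for anchor cell invasion, with 74.7 in replicate 1, 58.9 in replicate 2 and 135.1 in the pool. Of 9 neuron identity genes none had a called summit, and the strongest candidate there, at irx-1, was 30.1 in the pool. These lists are small, and 1 or 2 genes set each share.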

How the data were processed

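The deposited files were peak lists in narrowPeak format, and the 4 lists on ce11 were used; the ce10 lists were not, since no coordinate was converted. Per the deposited notes, candidate lists were made from the alignments and a further control file, and the IDR list from the candidate lists of both replicates and the pool. No source used here names the aligner, the peak caller or the IDR threshold. Column 7 is the signal value of each peak by the authors, and it was used only to rank and describe peaks. The deposited -log10 q values were not used for ranking.

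A window ran from 5 kb upstream of a gene's start to its end, by Ensembl release 115 on WBcel235, and all peaks lay within its chromosome lengths. A summit counted in every window that held it. Replicate values are those of the strongest replicate candidate that overlaps the pooled one by 1 bp or more. The files hold no read counts, so intervals (exact Poisson, 95%) cover counting of peaks only. No test between groups was possible with 1 group, and counts of members are given beside the same share of all protein-coding genes, a description across all genes. The members, lists and words were chosen with earlier results of these data known. All 10 members are named, with the genes of each related list that have a called summit and others that help to place them. Window counting was tested on simulated data. Python 3.11.15, numpy 2.4.6, pandas 2.3.3, scipy 1.17.1 and matplotlib 3.10.9 were used.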

Additional observations from a re-analysis of the deposited data

How the results depend on the processing

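Across 6 summary values, 44 alternatives were computed. The number of receptor genes with a called peak stayed at 2, nhr-48 and daf-12, with windows of 1, 2 or 10 kb upstream, with 1 kb added downstream, with any overlap in place of the summit and with summits assigned only to the nearest 5′ end. With the 1141 strongest candidates of 1 replicate alone, the number of genes and of peaks ranged from 1 (replicate 1: nhr-48) to 3 (replicate 2: nhr-23 in addition). Among the stronger 570 called peaks it was 1 gene with 1 peak, nhr-48. With the 2282 strongest pooled candidates it was 3 genes with 4 peaks, since nhr-23 and a further daf-12 region entered. The 44 pooled candidates became 30 with 1 kb upstream, 33 with 2 kb, 56 with 10 kb, 38 in replicate 1 alone and 50 in replicate 2 alone. Called peaks per 100 kb of member window, 1.54 as reported, ran from 1.11 with 10 kb upstream to 2.22 with 1 kb. They were 0.768 both for the stronger 570 and with the top of replicate 1, and 2.30 with the top of replicate 2. All lay within the exact Poisson interval of 0.186 to 5.55. That interval rests on 2 peaks and is too wide to show whether these settings matter. The background share moved with the window: 5.41% with 1 kb upstream, 6.70% with 2 kb, 14.4% with 10 kb, 11.04% with 1 kb added downstream, 13.9% for windows of 10 kb or longer and 5.26% for the stronger called peaks. The median rank of the members' strongest candidates, as a percent of the list from the top, was 28.9% in the pool and ranged from 19.0% in replicate 1 alone to 26.0% in replicate 2 alone. The cause was not tested, except that wider windows and fewer peaks change these counts by construction. No paired analysis was possible because there is 1 group. Without read counts, an absent candidate cannot be given an upper limit.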
